A study of Mus musculus with 51 samples.

Results

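The genes described here are 47 genes of the DNA replication machinery, chosen by name from what their proteins do, with earlier results of these data known. They were followed in C3H/10T1/2-SAM cells, a mouse mesenchymal cell line that can turn into fat cells and that carries dCas9-VP64 and MS2-P65-HSF1, the parts of a gene activation system that a guide RNA directs to a promoter. All 47 symbols were found among the 53801 genes of the count table, and all 47 passed the filter on low counts, which left 17015 genes.

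Before a cell copies its DNA, the origin recognition complex with Cdc6 and Cdt1 loads the ring of MCM2-7 proteins onto chromatin. In S phase this ring, joined by Cdc45 and the GINS proteins, becomes the helicase that opens the double strand, and the polymerases, held by the Pcna clamp, copy it. Transcription of most of these genes is controlled by E2F factors, so their messenger RNAs are known as markers of cells that cycle, and fat cell precursors in culture can divide again before they differentiate.

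Libraries were made from cells transfected with empty vector plasmid (EV, the control), with a plasmid for Pparg guide RNAs (P), or with Pparg and Ybx1 guide RNA plasmids together (PY), 250 ng of plasmid in total in each. Pparg encodes a nuclear receptor, the main driver of fat cell formation, and Ybx1 a nucleic acid binding protein. Every group, EV included, had dCas9-VP64 and MS2-P65-HSF1 and received 5 µM rosiglitazone, an agonist of the Pparg protein, from day 0, which was 48 h after transfection. RNA was sequenced at days 0, 2 and 4 in 6 experiments, which gave 51 libraries: 5, 6 and 6 of EV, 5, 6 and 6 of P, and 6, 5 and 6 of PY. All groups come from 1 cell line. Within a group no experiment gave more than 1 library. In fits that ignore the experiment, p-values therefore measure the spread between experiments with this line. In fits that pair libraries by experiment, they measure the spread left after differences between experiments are removed.

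Library totals ran from 3381870 to 114566739 counts with a median of 22366559 counts, and the lowest count of any of the 47 genes in any library was 7, for Fen1. The activated genes followed the labels: mean Pparg was 241.5, 298.9 and 238.6 CPM (counts relative to the library total as scaled by TMM) at days 0, 2 and 4 in P, 261.8, 297.6 and 264.8 CPM in PY, and 51.53, 56.47 and 57.13 CPM in EV. Mean Ybx1 was 2156, 2090 and 1873 CPM in PY and at most 708.4 CPM in any EV or P group. Markers of fibroblasts and preadipocytes were abundant, with 8 genes summing to between 5588 and 19852 CPM. The 5 macrophage markers summed to between 1.754 and 10.05 CPM, with Ptprc at most 0.207 CPM. The 5 epithelial markers summed to between 0.5031 and 15.67 CPM, with Epcam at most 0.105 CPM. The 5 endothelial markers summed to between 3.936 and 49.45 CPM, with Cdh5 at most 0.266 CPM. Most of each sum came from genes of the list not named here, so the named gene does not stand for its list.

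Each result below was tested with edgeR's quasi-likelihood test over all 17015 genes, and genes with a p under 0.05 after Benjamini-Hochberg adjustment passed. The labels number the experiments, and libraries of 1 experiment deviated together: the median correlation of their deviations from the group means was 0.342 (192 pairs), and for libraries of different experiments it was -0.0806 (963 pairs). The fit without a block keeps the differences between experiments in the spread, and its biological coefficient of variation was 0.325. With the experiment as a block that coefficient was 0.202. Both fits are given, because the block changed most counts of genes that passed.

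Per kilobase of exon, which allows levels of different genes to be compared, the highest median levels over all libraries were those of Mcm4 at 30.01 CPM per kb, Pcna at 29.67, Rrm2 at 26.96 and Mcm6 at 26.1. The lowest were those of Ung, a uracil glycosylase, at 0.9978 CPM per kb, the flap nuclease Fen1 at 1.5, the repressor E2f8 at 1.968 and Pole, the catalytic subunit of polymerase epsilon, at 2.61. Exons of 15 of the 47 genes overlap an exon on the opposite strand, among them Mcm7, Cdc45, Pole, Fen1, Tk1 and E2f8. The library kit keeps strand, but the strand setting of the counting is not given in the sources used here, so reads of those partners may be included. On the same strand 3 of the 47 have an overlap, and its effect on their counts was not tested. Processed pseudogenes named for Pcna and Tyms exist, and how reads shared with such copies were counted is not given in the sources used here.

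Promoters were read because E2F sites are the textbook link among these genes. In RefSeq windows of GRCm38.p6 from 250 bases before to 50 bases after the start, available for 38 of the 47 genes, the forms TTTCCCGC, TTTCGCGC, TTTGCCGC and TTTGGCGC were searched on both strands. Of those 38 genes 16 (42.1%) held a form, against 704 of 27025 symbols in all (2.6%) and 331 of 5465 symbols (6.06%) with at least the 24.5 CpG that is the median of the 38. A CCAAT box on either strand was in 22 of the 38 (57.9%) and in 41.1% of all symbols. The 250 bases before the start are printed for Mcm5 (chr8:75109259-75109508, plus strand), Pola1 (chrX:93632156-93632405, minus strand) and Mcm6 (chr1:128359706-128359955, minus strand), in GRCm38.p6 and from 5′ to 3′, with the E2F forms in capitals. They are shown because, in the fit with the experiment block, Mcm5 and Pola1 rose from day 0 to day 2 in EV and Mcm6 did not pass there, while all 3 fell from day 2 to day 4. Without a block none of the 3 passed in EV in either comparison.
Mcm5: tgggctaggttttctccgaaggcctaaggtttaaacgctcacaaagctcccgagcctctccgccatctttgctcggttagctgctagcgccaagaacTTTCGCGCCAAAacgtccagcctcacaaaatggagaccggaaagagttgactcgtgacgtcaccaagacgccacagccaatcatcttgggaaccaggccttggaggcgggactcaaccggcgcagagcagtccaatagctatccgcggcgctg
Pola1: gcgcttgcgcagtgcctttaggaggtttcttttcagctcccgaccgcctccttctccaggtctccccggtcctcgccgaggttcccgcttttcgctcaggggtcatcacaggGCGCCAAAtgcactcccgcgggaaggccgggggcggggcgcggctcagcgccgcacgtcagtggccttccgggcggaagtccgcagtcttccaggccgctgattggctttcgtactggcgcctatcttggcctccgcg
Mcm6: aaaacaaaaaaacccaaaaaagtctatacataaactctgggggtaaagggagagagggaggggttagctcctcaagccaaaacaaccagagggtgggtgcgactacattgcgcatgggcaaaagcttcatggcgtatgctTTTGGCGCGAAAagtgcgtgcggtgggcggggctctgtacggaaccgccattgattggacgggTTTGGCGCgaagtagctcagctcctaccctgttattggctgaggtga
In Mcm5 a form on each strand, beginning 153 and 149 bases before the start, overlaps the other. Mcm6 has such an overlapping pair, beginning 110 and 106 bases before the start, and another form at 47. Pola1 has 1, at 138.

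Summed over the 47 genes, the level was highest at day 2 in each transfection. In EV it ran from 1370 to 2577 CPM at day 0 (median 1979, n = 5), from 2263 to 3221 at day 2 (median 2564, n = 6) and from 1199 to 2564 at day 4 (median 1604, n = 6). The ranges of neighbouring days overlapped in EV. In P the medians were 1937, 2366 and 1428 CPM, and in PY 1932, 2075 and 1452 CPM, again with overlap. By gene, the group mean was highest at day 2 for 44 of 47 genes in EV, 42 in P and 39 in PY, and lowest at day 4 for 29, 43 and 43. The groups do not hold the same experiments. PY has no day 2 library of experiment 4, which had the highest PY sums at days 0 and 4 (2522 and 2437 CPM). EV has no day 0 library of experiment 6, and P none of experiment 2. In bulk RNA, fewer cells that replicate and less RNA of these genes per cell cannot be told apart.

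**Figure D1:**
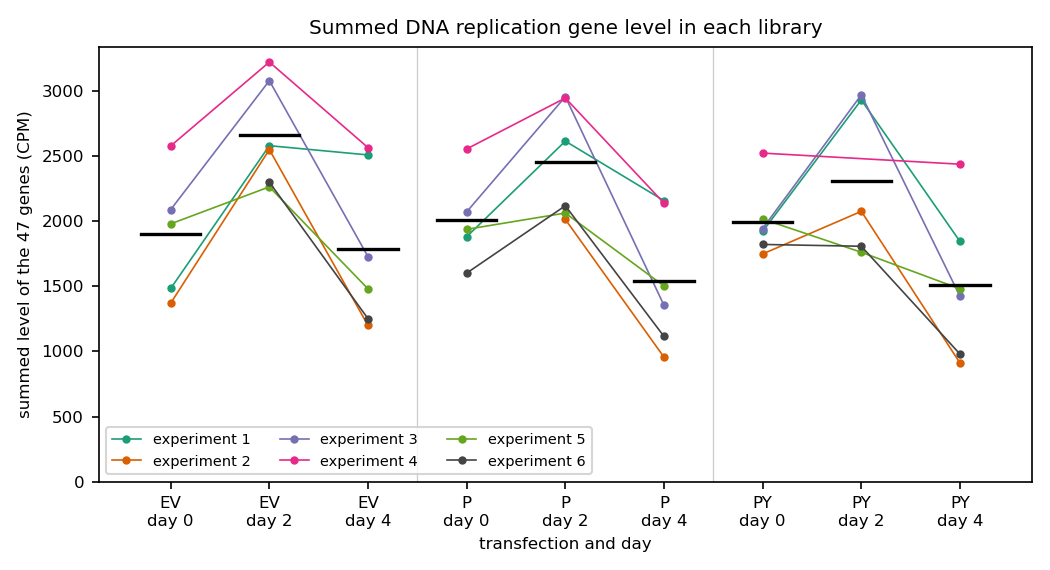
Summed level of the 47 replication genes in CPM (vertical axis) by day, in EV, P and PY; points are libraries, lines join libraries of 1 experiment, and black bars are group means. The PY line of experiment 4 joins day 0 to day 4, since it has no day 2 library, and EV experiment 6 and P experiment 2 have no day 0 library. Group means at day 2 were 2665, 2451 and 2309 CPM, and those at day 4 were 1788, 1537 and 1512 CPM.

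Day 2 was first set against day 0. Every group received rosiglitazone from day 0, so effects of the drug, of time since transfection and of time in culture cannot be told apart. In EV 6 of the 47 genes rose and none fell without a block, where 2.87% of all genes rose: the cyclin Ccne1, the thymidylate synthase Tyms, the maintenance methyltransferase Dnmt1, E2f8, the thymidine kinase Tk1, and Pold1, the catalytic subunit of polymerase delta. With the block 36 rose and none fell, where 10.2% of all genes rose, and the median over the 47 was log2 0.60 against 0.01 over all genes. In P 2 rose without a block (6.99% of all genes rose), Ccne1 and Tk1, and 22 with it (13.9%). In PY 2 rose without a block (11.4%), Ccne1 and Tyms, and 18 with it (17.3%). Without a block the counts in P and PY are smaller shares than those of all genes. With the block 13 genes rose in all 3 transfections: Gmnn, Mcm4, Cdc45, Rfc2, Rfc5, Pole, Lig1, Rrm2, Tyms, Tk1, Dnmt1, Ccne1 and E2f8. Another 10 rose in none: Orc6, Cdt1, Mcm6, Gins3, Pcna, Rfc3, Prim2, Pold3, Fen1 and Ung. The shares of all genes that rose in all 3 or in none are not given here. The 3 transfections come from the same experiments, so some overlap between them is built in. The count without a block in EV moved with single libraries, from 0 without EV day 0 replicate 2 to 8 without EV day 0 replicate 3. Without all libraries of experiment 4 it was 9 in EV, 3 in P and 5 in PY. The blocked count in PY was 6 without experiment 1, an alternative chosen after seeing the data, as are all blocked counts with an experiment left out. Shares of all genes in fits that leave out libraries or experiments are not given here.

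Among regulators, Ccne1, which with Cdk2 drives entry into S phase, rose in each transfection in both fits. In EV it was at 9.881, 10.31, 12.58, 14.36 and 17.45 CPM at day 0 and at 17.14 to 25.16 CPM at day 2 (median 20), and the ranges met only at their ends. In P it was at 10.18, 11.67, 13.08, 13.27 and 15.54 CPM and then at 19.33 to 24.52 CPM (median 19.63). In PY it was at 10.75 to 13.88 CPM (median 12.94) and then at 17.07, 18.66, 19.58, 20.37 and 25.43 CPM, so neither range overlapped between days. The differences without a block were log2 0.67 ± 0.17 (SE) in EV (1.59-fold, adjusted p = 0.013), 0.70 ± 0.17 in P (adjusted p = 0.00393) and 0.69 ± 0.17 in PY (adjusted p = 0.00317), higher in 4 of 5, 5 of 5 and 5 of 5 experiments. E2f8, an E2F target that represses other E2F targets, was at 5.066, 5.285, 5.687, 8.536 and 16.26 CPM at day 0 in EV and at 10.71 to 26.07 CPM at day 2 (median 17.27), with 1 day 0 library inside the day 2 range, a rise of log2 1.18 ± 0.36 (2.27-fold, adjusted p = 0.0346). E2f1, an activating E2F, was at means of 17.69 and 24.76 CPM in EV and rose only with the block (log2 0.56 ± 0.17, adjusted p = 0.0116), with overlapping ranges.

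Genes of nucleotide supply were among those that rose in EV. Rrm2, the regulated subunit of ribonucleotide reductase, was at 27.21, 30.89, 45.39, 53.81 and 125.5 CPM at day 0 in EV and at 74.71 to 196.3 at day 2 (median 102.7). The day 0 range overlapped that of day 2 through replicate 4 alone, the next library being at 53.81 CPM. Its difference was log2 1.26 ± 0.24 in the blocked fit (2.39-fold, adjusted p = 0.000159) and did not pass without a block. Tk1, which salvages thymidine, was at 15.55, 18.86, 19.96, 32.52 and 33.48 CPM and then at 39.94 to 49.5 CPM in EV (median 46.82), with no overlap, and differed by log2 0.95 ± 0.30 without a block (1.93-fold, adjusted p = 0.0402). Tyms, which makes thymidylate, was at 18.21, 20.07, 24.41, 27.29 and 27.43 CPM and then at 33.6 to 43.11 CPM (median 34.17), also without overlap (log2 0.63 ± 0.18, adjusted p = 0.0237). Rrm1, the other reductase subunit, rose by log2 0.50 ± 0.16 with the block (adjusted p = 0.0222), and Ung was at log2 0.35 ± 0.21 (adjusted p = 0.231).

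Of the licensing genes, Cdc6, Gmnn and Orc1 rose with the block in EV. Cdc6 was at 10.83, 12.54, 16.89, 21.1 and 26.13 CPM and then at 21 to 38.85 CPM (median 25.79), with overlap of the upper day 0 libraries, and was higher in 5 of 5 experiments (log2 0.77 ± 0.18, adjusted p = 0.00191). Gmnn, the inhibitor of Cdt1, rose by log2 0.81 ± 0.22 (adjusted p = 0.00674). Cdt1 itself was at log2 0.34 ± 0.23 in EV, 0.06 ± 0.22 in P and -0.37 ± 0.23 in PY, with adjusted p of 0.305, 0.889 and 0.224. Orc6 was at log2 0.07 ± 0.11 in EV (adjusted p = 0.693).

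Of the MCM2-7 genes 5 of 6 rose in EV with the block and 1 of 6, Mcm4, in P and in PY. In P and in PY that is near the share of all genes that rose, given above. A difference between transfections is not shown, since no interaction term given below passed for any of these genes. Mcm5 was at 44.9, 49.65, 75.48, 84.49 and 131 CPM and then 103.3 to 167.2 CPM (median 114.7) in EV, with an overlap that came from the day 0 library of experiment 4. The difference was log2 0.83 ± 0.23 (1.78-fold, adjusted p = 0.007), higher in 5 of 5 experiments. In P it was log2 0.48 ± 0.23 (adjusted p = 0.108) and in PY 0.25 ± 0.23 (adjusted p = 0.407). Mcm6 did not pass, with medians of 130.6 and 137.6 CPM in EV (log2 0.16 ± 0.17, adjusted p = 0.531). Among the proteins that activate the ring, Cdc45 rose in all 3 transfections with the block, by log2 0.68 ± 0.15, 0.68 ± 0.15 and 0.48 ± 0.15, with adjusted p of 0.00104, 0.000664 and 0.0113. Gins1 rose in EV and P and Gins2 likewise, whereas Gins3 was at log2 0.16 ± 0.13 in EV (adjusted p = 0.435).

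At the fork itself, Pole rose by log2 0.86 ± 0.17, 0.57 ± 0.17 and 0.63 ± 0.17 in EV, P and PY with the block (adjusted p = 0.000219, 0.00771 and 0.003), from a median of 22.31 to 46.43 CPM in EV. Lig1, the ligase that joins Okazaki fragments, rose by log2 0.84 ± 0.16, 0.59 ± 0.16 and 0.50 ± 0.16 (adjusted p = 0.000145, 0.00331 and 0.0101). Rpa1 and Rpa2, which coat single-stranded DNA, rose in EV by log2 0.50 ± 0.13 and 0.63 ± 0.15 (adjusted p = 0.00403 and 0.00174). Pcna was at 65.03 to 105.2 CPM and then 79.33 to 99.6 CPM in EV, overlapping almost entirely, and did not pass (log2 0.27 ± 0.15, adjusted p = 0.208). Pold3, an accessory subunit of polymerase delta, was at log2 -0.05 ± 0.09 in EV (adjusted p = 0.763). On chromatin, Uhrf1, which brings Dnmt1 to newly copied DNA, rose by log2 0.97 ± 0.20 in EV (adjusted p = 0.00037), and Dnmt1 went from 128.5, 129.1, 160.6, 172.8 and 176.2 CPM at day 0 to between 204.6 and 255 CPM at day 2, with no overlap (log2 0.59 ± 0.12, adjusted p = 0.000338). The assembly factor genes Chaf1a and Chaf1b also rose in EV.

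**Figure D2:**
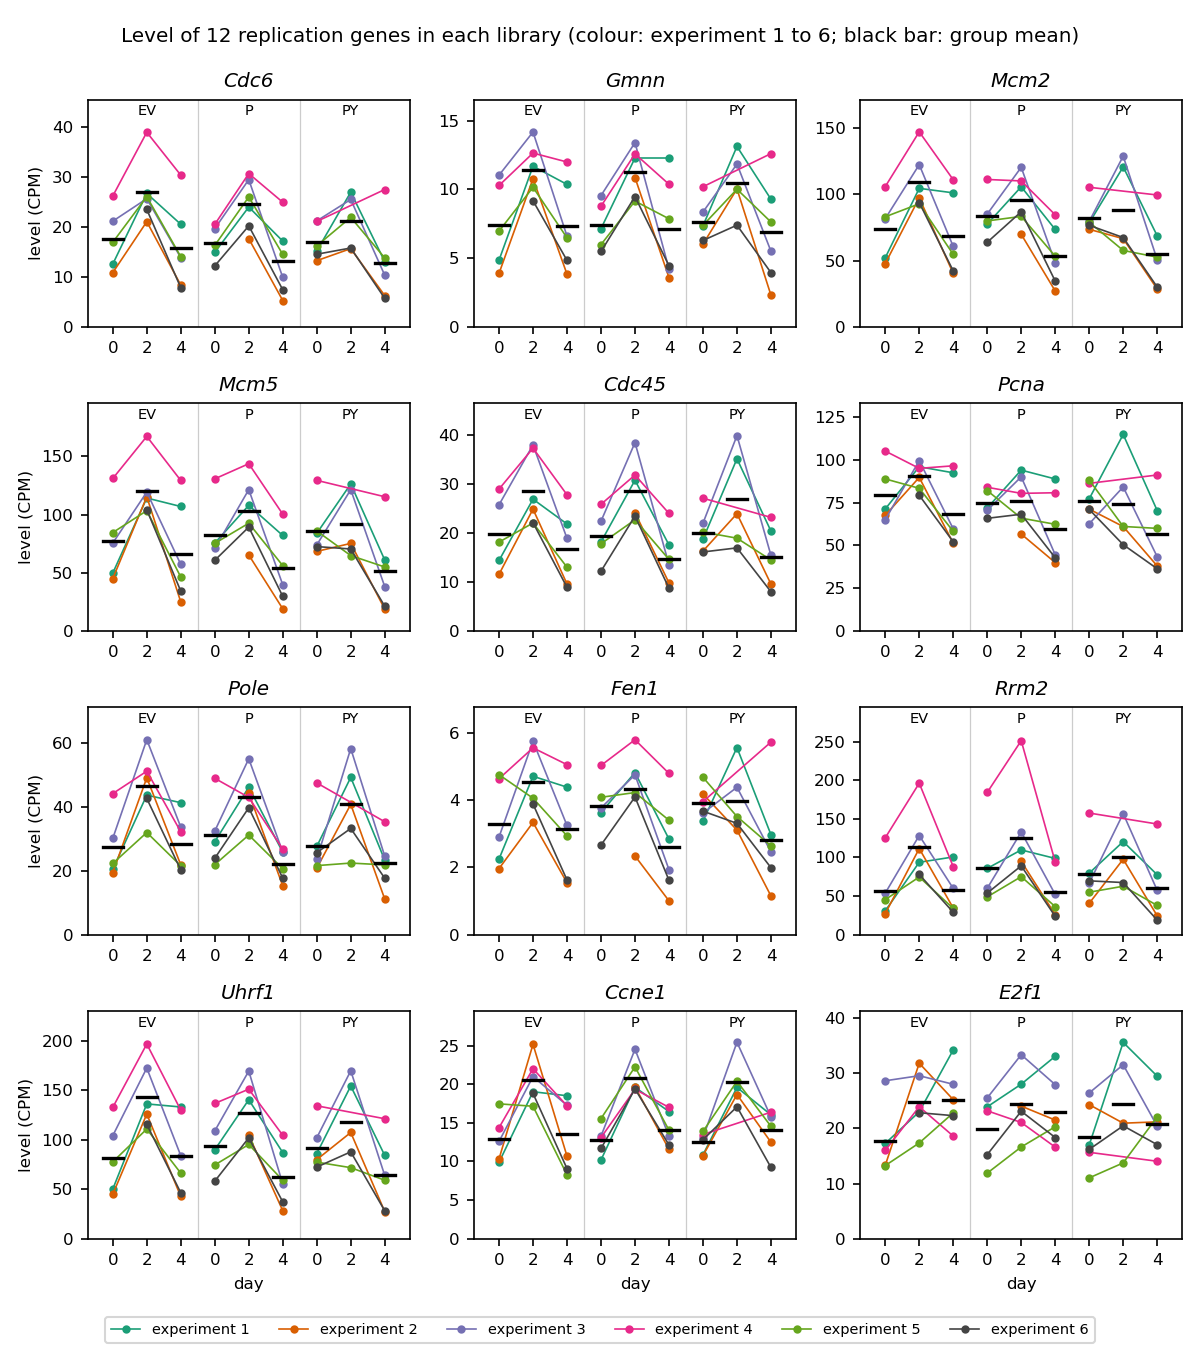
Levels in CPM (vertical axes) of representatives of each role by day in EV, P and PY; points are libraries, lines join libraries of 1 experiment within a transfection and black bars are group means. Mcm5 had means of 77.1, 120.6 and 66.39 CPM in EV, while E2f1 had 17.69, 24.76 and 25.2 CPM.

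From day 2 to day 4 most of the machinery fell in the blocked fit. There 43 of 47 genes fell in EV, 41 in P and 40 in PY and none rose, where 9.74%, 10.2% and 3.1% of all genes fell, and the medians over the 47 were log2 -0.62, -0.73 and -0.69. Without a block 0 passed in EV (0.00588% of all genes fell), 3 fell in P (0.723%), namely Rfc5, Tyms and Pole, and 0 passed in PY (0%). In that fit 37, 40 and 35 of the 47 had an unadjusted p under 0.05, and DESeq2 passed 3, 18 and 1. The shares of all genes under that p, or passed by DESeq2, are not given here. In the blocked fit 39 genes fell in all 3 transfections, and 4 passed in none: Gins4, Rfc2, Ung and E2f1. The shares of all genes that did so are not given here. Leaving out experiments gave 35 to 46 in EV, 36 to 42 in P and 28 to 43 in PY with the block. Without a block the count in P was 27 without P day 4 replicate 4 and 0 without P day 4 replicate 2, and without experiment 4 it was 11 in EV, 26 in P and 20 in PY. The shares of all genes in these reduced fits are not given here, so the shifts are not shown to be particular to the 47.

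Mcm5 again shows the spread: at day 4 it was at 24.78 to 129.3 CPM in EV (median 51.64), 18.89 to 100.3 in P (median 47.79) and 18.56 to 115.3 in PY (median 46.43). These ranges overlapped those of day 2 in each transfection. Within experiments it was lower in 6 of 6, 6 of 6 and 5 of 5, by log2 -1.07 ± 0.22, -1.07 ± 0.22 and -1.18 ± 0.23 (2.1-, 2.1- and 2.27-fold lower, adjusted p = 0.000652, 0.000533 and 0.000763). All 6 MCM2-7 genes fell in all 3 transfections, Mcm7 least, by log2 -0.50 ± 0.12, -0.55 ± 0.12 and -0.62 ± 0.13 in EV, P and PY, beside Mcm4 at -0.51 ± 0.13, -0.60 ± 0.13 and -0.63 ± 0.14. All 5 licensing genes fell too. Cdc6 was at 7.81 to 30.29 CPM in EV at day 4 (median 13.9) and fell by log2 -0.88 ± 0.17, -1.02 ± 0.17 and -0.99 ± 0.19, with adjusted p of 0.000477, 6.83e-05 and 0.000539. Orc6 fell least of them, by log2 -0.32 ± 0.10 in EV (adjusted p = 0.02).

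In helicase activation, Mcm10, which helps the loaded ring to open, fell by log2 -1.12 ± 0.19, -1.10 ± 0.20 and -1.34 ± 0.21, the largest differences in EV and PY. Cdc45 fell by -0.85 ± 0.14, -1.01 ± 0.14 and -0.95 ± 0.15, lower in every experiment, with adjusted p of 0.000126, 7.83e-06 and 0.000151. Gins4, another GINS gene, did not pass. It was at 30.37 to 34.97 CPM at day 2 and 24.13 to 43.01 CPM at day 4 in EV, and differed by log2 -0.17 ± 0.10, 0.07 ± 0.10 and -0.06 ± 0.11 (adjusted p = 0.275, 0.675 and 0.831). All 8 polymerase and primase genes fell in all 3 transfections, and Pole fell by log2 -0.73 ± 0.16, -0.99 ± 0.16 and -0.94 ± 0.17, from a median of 43.64 CPM to 23.25 CPM in P, with ranges of 31.22 to 55.1 and 15.32 to 26.79 CPM that did not overlap. In the clamp loader, Rfc5 fell by log2 -0.60 ± 0.12, -0.73 ± 0.12 and -0.69 ± 0.13, whereas Rfc2 was at -0.27 ± 0.11, -0.25 ± 0.11 and -0.26 ± 0.12 and did not pass.

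Rrm2 fell by log2 -1.07 ± 0.22, -1.25 ± 0.22 and -1.19 ± 0.23 (adjusted p = 0.00083, 0.000111 and 0.000798), lower in 5 of 6, 6 of 6 and 5 of 5 experiments. Uhrf1 fell by -0.87 ± 0.18, -1.13 ± 0.19 and -1.12 ± 0.20, and Dnmt1 by -0.49 ± 0.11, -0.56 ± 0.11 and -0.61 ± 0.12. Ccne1 fell by log2 -0.63 ± 0.15, -0.57 ± 0.15 and -0.55 ± 0.16. E2f1 was an exception among the regulators: its day 4 levels in EV were 18.61 to 34.24 CPM against 17.36 to 31.84 at day 2, a difference of log2 0.02 ± 0.15 (adjusted p = 0.945), and it stood at -0.09 ± 0.15 in P and -0.14 ± 0.16 in PY. Under total-count scaling without a block the EV difference of E2f1 was log2 -0.02.

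**Figure D3:**
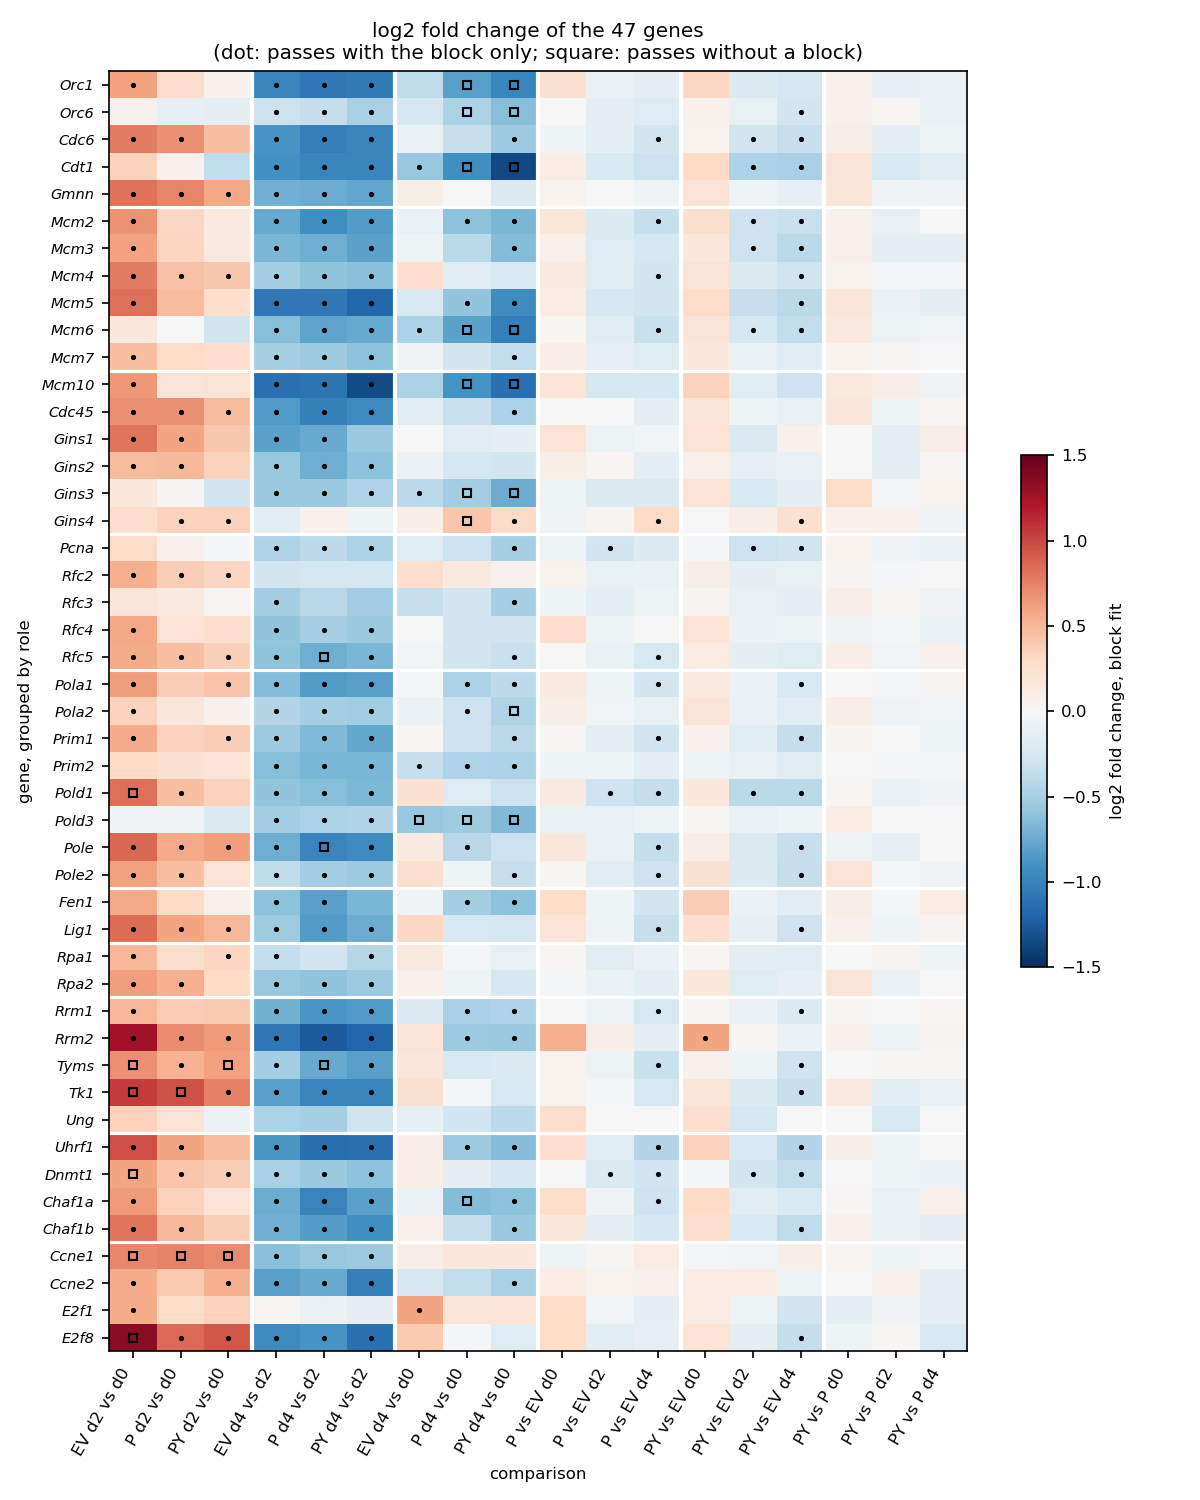
Log2 fold change of each of the 47 genes (rows, by role) in each comparison (columns), from the blocked fits (experiment block between days, experiment-and-day block between transfections), with colour from -1.5 to 1.5; a dot marks a gene that passed only with the block and a square one that passed without a block. The day 2 against day 0 columns carry 36, 22 and 18 genes that rose with the experiment block, and the day 4 against day 2 columns 43, 41 and 40 that fell.

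Day 4 against day 0 showed which genes ended below their start. Without a block 1 gene fell in EV (14.9% of all genes fell), Pold3, 8 fell in P (18.6%) and 8 in PY (17.8%), and 1 rose in P (18.7%), Gins4. These shares are near or below those of all genes. With the block 5 fell in EV (22.4%), 18 in P (26.1%) and 28 in PY (26.1%), with medians over the 47 of log2 -0.04, -0.32 and -0.40. The same 5 fell in all 3 transfections: Cdt1, Mcm6, Gins3, Prim2 and Pold3. In EV these 5 are a smaller share than that of all genes, and the share of all genes that fell in all 3 is not given here. All 5 are among the 10 that rose in none by day 2. Both comparisons use the same day 0 libraries, so this overlap is partly built in. Pold3 was at 40.81, 43.99, 48.39, 50.62 and 55.37 CPM at day 0 in EV, 37.3 to 55.57 at day 2 and 24.18 to 43.79 at day 4, with overlap of the day 0 and day 4 ranges through the highest day 4 library. It fell without a block by log2 -0.60 ± 0.15 in EV, -0.56 in P and -0.63 ± 0.15 in PY (adjusted p = 0.003, 0.0035 and 0.000763), lower in 5 of 5, 5 of 5 and 6 of 6 experiments. Mcm6 was at log2 -0.48 ± 0.17, -0.80 ± 0.17 and -1.03 ± 0.16 with the block, and Cdt1 at -0.57 ± 0.23, -0.92 ± 0.22 and -1.35 ± 0.22 (2.54-fold lower in PY, adjusted p = 2.2e-06). Members that rose with the block were E2f1 in EV (log2 0.59 ± 0.17, adjusted p = 0.00358; 22.3% of all genes rose) and Gins4 in P (0.42 ± 0.11, adjusted p = 0.0017; 25.3%) and in PY (0.29 ± 0.11, adjusted p = 0.0214; 26.1%). The count without a block in PY was 24 without PY day 4 replicate 4, 19 without experiment 4 and 4 without experiment 5. In P it was 14 without P day 4 replicate 4 and 2 without experiment 5, and in EV 4 without EV day 4 replicate 4 and 3 without experiment 4. The blocked counts ran from 3 without experiment 5 to 11 without experiment 1 in EV, up to 31 without experiment 1 in P, and down to 15 without experiment 6 in PY. Shares of all genes in these reduced fits are not given here.

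The experiments differed in the size of these changes. The median change of the 47 genes from day 0 to day 2 within an experiment was positive in 5 of 5 experiments in EV, from log2 0.29 to 0.93, and in 5 of 5 in P, from 0.23 to 0.50. In PY it was positive in 3 of 5 experiments, and -0.09 and -0.04 in experiments 5 and 6. From day 2 to day 4 it was negative in every experiment of each transfection, from -0.08 in EV experiment 1 to -1.24 in PY experiment 2. From day 0 to day 4 it had both signs in EV, from 0.73 in experiment 1 to -0.39 in experiment 5. The summed level at day 4 was highest in experiments 1 and 4, at 2508 and 2564 CPM in EV, 2157 and 2138 in P and 1844 and 2437 in PY. The share of ribosomal RNA in the counts, a mark of how well depletion worked, had medians of 2.05, 5.25, 10.4, 2.82, 1.57 and 2% in experiments 1 to 6 and 2.3, 2.28 and 2.44% at days 0, 2 and 4. Its part in the spread between experiments was not tested.

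P and PY were each set against EV at the same day to ask whether activating Pparg, alone or with Ybx1, changed the machinery. Both comparisons share the EV libraries. Without a block 0 of the 47 passed in either at any day. In P against EV 0.00588% of all genes passed at day 0, 2.84% at day 2 and 5.38% at day 4, and in PY against EV 0.047%, 4.74% and 7.83%. The medians over the 47 were log2 0.08, -0.10 and -0.21 for P and 0.06, -0.19 and -0.19 for PY. At day 2 EV has a library of experiment 4 and PY has none, so the PY median there compares unlike sets of experiments. An unadjusted p under 0.05 was held by 0 of the 47 at days 0 and 2 and by 1 at day 4, Gins4 in P (log2 0.29 ± 0.12, adjusted p = 0.244) and Dnmt1 in PY (-0.36 ± 0.16, adjusted p = 0.227).

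When libraries were compared within the same experiment and day, the spread was smaller (biological coefficient of variation 0.129) and small differences passed. At day 4, 16 of the 47 fell in P and 22 in PY against EV, where 12.4% and 17% of all genes were lower, and Gins4 alone rose in both, where 11.8% and 15% were higher. At day 2, 3 were lower in P (7.59% of all genes), namely Dnmt1, Pcna and Pold1. In PY 8 were lower (12.4%), namely those 3 with Cdt1, Mcm6, Mcm2, Mcm3 and Cdc6. The day 2 count is a smaller share than that of all genes in P and not far above it in PY. At day 0, Rrm2 was the 1 gene that passed, higher in PY (0.799% of all genes were higher) by log2 0.59 ± 0.15 (adjusted p = 0.0405). With the experiment alone as the block, the 47 gave 0 in each of these comparisons except PY against EV at day 4. There 3 fell (5.57% of all genes), Dnmt1, Orc6 and Pole2, a count near that share, and 0 without experiment 2. The sizes were modest. Dnmt1 was at 112.6 to 214.6 CPM in EV (median 162.8), 86.92 to 177.7 in P (median 130.7) and 76.22 to 185 in PY (median 125.8) at day 4. The 3 ranges overlapped widely, while within experiments P and PY were each lower in 6 of 6. The differences within experiment and day were log2 -0.29 ± 0.06 (1.22-fold lower, adjusted p = 0.00107) and -0.37 ± 0.06 (1.29-fold lower, adjusted p = 2.73e-05).

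Other roles at day 4 had differences of like size in that fit. Mcm6 was at log2 -0.33 ± 0.08 in P and -0.37 ± 0.08 in PY (adjusted p = 0.00231 and 0.000553), Uhrf1 at -0.44 ± 0.11 in both (adjusted p = 0.00276 and 0.00194), and the primase subunit gene Prim1 at -0.29 ± 0.07 and -0.36 ± 0.07 (adjusted p = 0.00313 and 0.000256). Each was lower in 6 of 6 experiments in both comparisons. Cdt1 fell in PY by log2 -0.49 ± 0.13 (1.4-fold lower, adjusted p = 0.0031), and Gins4 rose by 0.29 ± 0.09 in P and 0.24 ± 0.09 in PY (adjusted p = 0.0117 and 0.0296), higher in 5 of 6 experiments. The within-experiment median of the 47 at day 4 was negative in all experiments but experiment 5, where it was 0.07 in P and 0.04 in PY. Fat cell markers moved with the same groups: the 9 summed to medians of 99.39 CPM in EV, 5950 in P and 10003 in PY at day 4, with ranges of 50.46 to 495.5, 3071 to 13296 and 1540 to 15628 CPM. By median the replication genes were 0.152, 0.135 and 0.138% of all counts in EV, P and PY at day 4. Their ranges, 0.128 to 0.264, 0.09 to 0.222 and 0.0796 to 0.25%, overlapped widely. All counts include mitochondrial RNA, at medians of 2.97, 3.56 and 4.95%, and ribosomal RNA, at 2.17, 2.32 and 3.28%. The part of the fat cell markers or of these RNAs in the shares of replication genes was not tested.

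PY was set against P to ask what Ybx1 activation added. None of the 47 passed at any day in the fit without a block or in either blocked fit, where 0.0294%, 0.0118% and 0.0176% of all genes passed at days 0, 2 and 4 without a block, and none of the 47 had an unadjusted p under 0.05 there. The medians were log2 -0.02, -0.09 and -0.02, and at day 2 P has a library of experiment 4 while PY has none. Among the 3 genes of lowest p at each day were Gins3 at day 0 (log2 0.22 ± 0.21), Cdt1 at day 2 (-0.32 ± 0.37, a fold of 0.803 with a 95% interval of 0.483 to 1.34) and E2f8 at day 4 (-0.24 ± 0.33, interval 0.539 to 1.34). Intervals of this width do not show that P and PY act alike.

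Whether the course over days differed between transfections was tested by 9 interaction terms. None of the 47 passed in any of them, with or without the experiment block. For P against EV 0.0588% of all genes passed in the term from day 0 to 2, 0.288% from day 0 to 4 and 0% from day 2 to 4 (0.094%, 1.32% and 0% with the block). For PY against EV the shares were 0.118%, 1.55% and 0% (0.3%, 3.27% and 0%), and for PY against P 0% in each term. The gene of lowest p with the block was Pole2, a subunit of polymerase epsilon. Its change from day 0 to day 4 differed between PY and EV by log2 -0.57 ± 0.18 (adjusted p = 0.0791). In that term 20 of the 47 had an unadjusted p under 0.05, and 10 in the same term for P. The shares of all genes under that p are not given here. After adjustment none of the 47 passed. Most differences from EV at day 4 passed only in the fit with experiment and day as the block. Interaction terms from that fit are not given here. The larger number of genes that rose by day 2 in EV than in PY is therefore not shown to be a difference between them, nor is the larger number that fell by day 4 in PY.

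Lists of other cell cycle genes, chosen like the 47 with earlier results known, gave the setting. Of 46 other replication genes, 20 rose and 2 fell from day 0 to day 2 in EV with the block, 16 rose and 4 fell in P, and 16 rose and 5 fell in PY. From day 2 to day 4, 30, 32 and 25 fell and 0 rose. Among them Top2a, the topoisomerase of dividing cells, rose by log2 1.22 in EV (adjusted p = 3.64e-05), and Cdc7, the kinase that fires origins, fell by log2 -0.93 in P and -1.03 in PY (adjusted p = 7.83e-06 and 2.43e-05). Of 20 mitosis genes, 19 rose from day 0 to day 2 in each transfection and 20 fell from day 2 to day 4 in each, with medians of log2 1.26, 0.95 and 0.84 and then -0.93, -1.11 and -1.09. The kinase gene Plk1 rose by log2 1.37 in EV (adjusted p = 8.04e-06), and the summed level of the 20 had medians of 910.6, 1803 and 952.5 CPM there. Of 23 genes of S-phase entry control, 11, 7 and 7 rose and 1, 1 and 2 fell by day 2 with the block, and Myc was the 1 that fell in EV (log2 -1.15, adjusted p = 0.000335). From day 2 to day 4, 12, 11 and 8 of them fell and 1 rose in each transfection. Of 6 cyclin-dependent kinase inhibitor genes that passed the filter, 3, 2 and 3 rose and 2 fell in each transfection by day 2, and 0 passed from day 2 to day 4 in any. Among them Cdkn1a, which encodes p21, fell by day 2 in EV (log2 -0.64, adjusted p = 0.00212) and Cdkn2c rose (0.87, adjusted p = 0.000587). Without a block 3, 2 and 5 of the 46 other replication genes and 15, 7 and 7 of the 20 mitosis genes rose from day 0 to day 2, and 0, 3 and 0 and then 0, 6 and 0 of these lists fell from day 2 to day 4. The shares of all genes that rose by day 2 or fell from day 2 to day 4 are given above with the 47. Other shares of all genes are not given here. In P and PY the other replication genes that rose without a block are smaller shares than those of all genes.

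The counts of genes that passed were split by promoter, and the difference between the promoter groups was not tested. Of the 16 genes with an E2F form in the window, 11, 6 and 3 rose from day 0 to day 2 in EV, P and PY with the block, and of the 22 genes without one 18, 9 and 9 did, a larger share of the group in each transfection. From day 2 to day 4, 16, 15 and 15 of the 16 fell, and 20, 19 and 19 of the 22. The shares of all genes that did so in each comparison are given above. In PY the 3 of 16 that rose are near the share of all genes that rose. Mcm6, with 3 forms, and Mcm5, with an overlapping pair, both fell from day 2 to day 4 in each transfection with the block, and of these 2 genes only Mcm5 rose by day 2 in EV. A match in a window is a description of its letters and not evidence that a factor binds there.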

How the data were processed

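RNA of 51 libraries was prepared with a stranded total RNA kit after ribosomal RNA depletion, per the labels' protocols. The deposited table holds raw read counts per gene, which the authors made with STAR 2.5.3a and featureCounts 1.5.2 on mm10/GRCm38, per the submitters' processing notes, which also name edgeR 3.22.0; strand setting, annotation release and the treatment of reads with several matches are not given in the sources used here. Gene IDs were named from GENCODE M21, which holds 53706 of the 53801 IDs.

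Counts as deposited were tested in R 4.3.3 with edgeR 4.0.16 (quasi-likelihood test, TMM scaling, filterByExpr, means of 9 groups, two-sided) and Benjamini-Hochberg adjustment over 17015 genes. The labels number the experiments, so fits with the experiment, or experiment and day, as a block are paired by the labels. Folds of levels are in CPM scaled by TMM. Alternatives were DESeq2 1.42.0 (size factors), RLE scaling, total counts, no filter, a stricter filter (1 CPM in at least 5 libraries), and fits without single libraries or experiments or the 2 libraries of lowest total. Scripts were tested on simulated data. The 47 genes and all lists were chosen with earlier results of these data known. Genes named from other lists are among the 2 of lowest adjusted p in a direction. Depth limits precision most in the library of 3381870 counts; no technical replicates were given.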

Additional observations from a re-analysis of the deposited data

Results flagged for a closer look

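Levels of the summed set and of 12 representative genes were examined in each of the 9 groups, which hold 5 or 6 libraries, for a highest or lowest library set apart by a gap large against the group's range. Of these 117 sets of values 13 had one. Chance gives about 1 in 20 among independent sets, but these share the same 51 libraries, so the 13 cannot be read against that rate. All 13 were highest values, and all but that of E2f1 came from experiment 4.

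In EV at day 2, replicate 4 had Cdc6 at 38.85 CPM (next library 26.63) and Mcm5 at 167.2 CPM (119.3). In EV at day 0, replicate 4 had Rrm2 at 125.5 CPM (53.81), and replicate 3, of experiment 3, had E2f1 at 28.65 CPM (17.27). In P at day 0, replicate 3, which is of experiment 4, had Mcm5 at 130.7 CPM (75.41) and Rrm2 at 184.3 CPM (85.88), and in P at day 2 replicate 4 had Rrm2 at 251.4 CPM (133). In PY at day 0, replicate 4 had Mcm2 at 105.4 CPM (79.6), Mcm5 at 129.4 (85.85), Pole at 47.55 (27.62), Rrm2 at 157.6 (79.73) and the sum of the 47 genes at 2522 CPM (2016). In PY at day 4 the same replicate had Cdc6 at 27.42 CPM (13.76). No cause was tested. Without experiment 4, the genes of the 47 that passed in EV, P and PY without a block were 9, 3 and 5 (day 2 against 0), 11, 26 and 20 (day 4 against 2) and 3, 11 and 19 (day 4 against 0). With the block they were 38, 22 and 15, then 46, 42 and 43, and then 7, 26 and 35. The shares of all genes that passed without experiment 4 are not given here. The shifts in these counts are therefore not shown to be particular to the 47.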

How the results depend on the processing

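Counts are of the 47 genes that passed. No shares of all genes are given here for DESeq2, the other scalings and filters or the leave-one-out fits. Shifts of the counts in those fits are therefore not shown to be particular to the 47. The replicate block by experiment gave 36, 22 and 18 from day 0 to day 2 in EV, P and PY (6, 2 and 2 without it), 43, 41 and 40 from day 2 to day 4 (0, 3 and 0), 6, 19 and 29 from day 0 to day 4 (1, 9 and 8), and 3 for PY against EV at day 4 (0); other comparisons stayed at 0. The block by experiment and day gave 1 for PY against EV at day 0, 3 and 8 for P and PY against EV at day 2, and 17 and 23 at day 4. DESeq2 gave 12, 4 and 4 from day 0 to day 2 and 3, 18 and 1 from day 2 to day 4. From day 0 to day 2, no filter gave 2 in EV and 1 in P, total counts 1 in P, and RLE and the stricter filter 4 each in PY; from day 0 to day 4, no filter gave 4 in P and 5 in PY. In P from day 2 to day 4, RLE gave 5, the stricter filter 9 and a fit of those 2 groups alone 0.

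Leaving out 1 library or experiment gave, in EV, 0 to 9, 0 to 11 and 1 to 4 (day 2 against 0, 4 against 2, 4 against 0), in P 1 to 3, 0 to 27 and 2 to 14, in PY 1 to 5, 0 to 20 and 4 to 24, and for P and PY against EV at day 4 0 to 1 each. With the block, chosen after seeing the data, it gave 26 to 38, 35 to 46 and 3 to 11 in EV, 14 to 22, 36 to 42 and 14 to 31 in P, 6 to 20, 28 to 43 and 15 to 35 in PY, and 0 to 1 and 0 to 4 for P and PY against EV at day 4. Directions that turned belonged to small differences. E2f1 in EV from day 2 to 4 was at log2 -0.02 with total counts and -0.01 with no filter. From day 0 to 2 in PY, Mcm2 was at -0.0017 and Fen1 at -0.03 with total counts, and Mcm2, Mcm5 and Fen1 at -0.06, -0.04 and -0.01 without the 2 libraries of lowest total. Leave-one-out ranges that crossed 0 were -0.10 to 0.11 (E2f1, EV day 4 against 2), -0.22 to 0.02 (E2f1, P day 4 against 2), -0.08 to 0.09 and -0.27 to 0.08 (Pcna, P and PY day 2 against 0), -0.07 to 0.22, -0.07 to 0.24 and -0.22 to 0.11 (Mcm2, Mcm5 and Fen1, PY day 2 against 0), -0.39 to 0.05 (Pole, PY against P day 0), -0.39 to 0.00072 (E2f8) and -0.36 to 0.13 (Ccne2, both PY against P day 4), and -0.02 to 0.42 (Pole, change of PY against P from day 0 to 4). The cause was not tested. Depth limits Fen1 most, with 7 counts in 1 library.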
